A study of Mus musculus with 6 samples.

Results

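The BCL2 family decides at the outer membrane of the mitochondrion whether a cell starts apoptosis. Pro-survival members (Bcl2, Bcl2l1, which encodes BCL-XL, and Mcl1) hold the pore-forming members Bax and Bak1 in check. BH3-only members (Bcl2l11, which encodes BIM, Bbc3, which encodes PUMA, Pmaip1, which encodes NOXA, Bmf and Bid) sense stress and either block the pro-survival members or activate the pore formers. In regulatory T (Treg) cells, survival is known to lean on MCL1 and to be limited by BIM.

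The RNA of these 10 genes, 3 pro-survival and 7 pro-death, was compared between control-Treg (ctrl-Treg) and sorafenib-treated (Sora-Treg) cells. The genes were chosen by symbol, and all 10 were found among 22939 genes of the count table. Both groups were mouse naive CD4+ T cells of Foxp3-GFP knock-in animals on a C57BL/6J background, taken from spleen and lymph nodes, stimulated through CD3 and CD28 and polarized in culture with TGF-β1 and antibodies to IFN-γ and IL4. The cells were then sorted on GFP, so both groups were GFP-positive. Sora-Treg cells had in addition received sorafenib (Sora), a multikinase inhibitor given in liver cancer. There were 3 libraries per group, and neither the dose and day of these libraries nor whether they came from separate animals or cultures was given in the sources used here. P-values therefore measure the spread between these libraries, which may be technical. The study also followed apoptosis and reported more of it under Sora, in Treg cultures from C57BL/6J mice rather than in these sorted cells. The question here was how the transcripts of the pro-survival and pro-death genes stood in the sorted cells. How they relate to the apoptosis that the study measured was not tested.

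Total counts were between 30727686 and 37717324 per library. Treg markers were present in all 6 libraries, with the sum of 7 genes at 3890 to 3930 CPM (counts relative to the library total, scaled with edgeR's TMM factors) in ctrl-Treg and 6800 to 6910 CPM in Sora-Treg cells. Il2ra (mean 1930 to 3790 CPM) and Ctla4 (383 to 1110 CPM) rose most in CPM, and Ikzf2 (147 and 149 CPM) did not pass. The other 6 of the 7 were higher, where 59.6% of all tested genes differed in either direction at an adjusted p under 0.05 in edgeR. Of these 6, Foxp3 stood at 259 ± 8.99 and 272 ± 4.75 CPM (SD, n = 3), but it kept its call under 6 of 17 alternative settings and the sign depended on the scaling. FPKM, which carries no TMM factor, went the other way for Foxp3 (68.5 against 66.6) and Cd4 (204 against 196). The sum of 7 myeloid genes was 93.5, 93.0 and 24.9 CPM across ctrl-Treg libraries 1, 2 and 3, and 22.3, 42.9 and 20.8 CPM across Sora-Treg libraries, with 5 of the 7 lower and none of the 7 at 0 throughout. Of 5 B-cell genes, 4 were tested and all 4 were lower, with a sum of 9.71 to 10.7 CPM against 6.09 to 7.68 CPM. The 2 CD8 genes summed to 13.2 to 15.1 against 12.6 to 13.8 CPM, with 1 lower, and 3 erythroid genes had at most 4 counts in any library. The sum of 9 mitochondrially encoded genes was 18300 to 20400 CPM in ctrl-Treg and 23800 to 29800 CPM in Sora-Treg libraries, with 8 higher. The part of these marker genes in the results on the family was not tested. In bulk RNA, fewer cells of a type and less RNA per cell cannot be told apart.

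Of the 10 family members, 7 differed between the groups at an adjusted p under 0.05 in the edgeR quasi-likelihood test, 2 higher and 5 lower in Sora-Treg cells. Among all 13463 genes tested, 59.6% differed by that rule, 29.7% higher and 29.9% lower, so a share of this size is not particular to the family. None of the 10 changed by more than 2-fold (a log2 fold change beyond 1), which 11.3% of all tested genes did. The directions followed the roles only in part. Of the pro-survival genes, Bcl2 and Mcl1 rose and Bcl2l1 fell, with a median log2 fold change of 0.57. Of the 7 pro-death genes, Bbc3, Pmaip1, Bid and Bax fell, none rose and 3 did not pass the test, with a median of -0.34. For all tested genes the quartiles of the log2 fold change were -0.28 and 0.27. The groups did not overlap for 8 of the 10 members, where the same held for 63.7% of all tested genes.

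**Figure D1:**
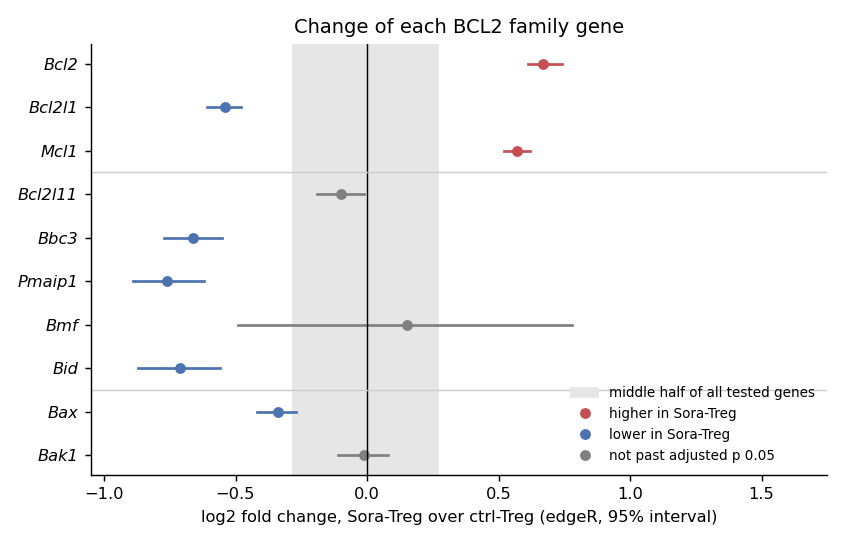
Log2 fold change of each member in Sora-Treg over ctrl-Treg cells from edgeR, with its 95% interval (horizontal bars, 3 libraries per group), pro-survival genes at the top and pore formers at the bottom. Bcl2 and Mcl1 lie right of 0, Bcl2l1, Bbc3, Pmaip1, Bid and Bax lie left of it, and the shaded band runs from -0.28 to 0.27, the quartiles of all tested genes.

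Bcl2, the founding pro-survival gene (chromosome 1), had 409, 416 and 404 TMM-scaled CPM in ctrl-Treg libraries 1, 2 and 3, and 628, 683 and 649 CPM in Sora-Treg libraries. Every Sora-Treg library lay above every ctrl-Treg library, with means of 409 ± 6.29 and 653 ± 28.0 CPM (SD, n = 3). The level was 1.60-fold higher, a log2 fold change of 0.67 ± 0.03 (SE, adjusted p = 4.72e-15 in edgeR).

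Mcl1 (chromosome 3), whose protein is short-lived and needs constant synthesis, gave 420, 422 and 422 CPM in ctrl-Treg and 620, 636 and 621 CPM in Sora-Treg libraries. The 3 control values were almost equal, and the groups were far apart. The log2 fold change was 0.57 ± 0.03 (SE, adjusted p = 5.02e-15 in edgeR), or 1.49-fold.

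Bcl2l1 (chromosome 2) went the other way. Its level was 251, 254 and 254 CPM in ctrl-Treg libraries and 178, 168 and 177 CPM in Sora-Treg libraries, without overlap. The log2 fold change was -0.54 ± 0.03 (SE, adjusted p = 6.10e-13 in edgeR), and the level fell by 31.3%. Within each library this changed the make-up of the pro-survival transcripts, read as FPKM, the deposited level, which divides counts by gene length and library total. Bcl2l1 made up 30.6% ± 0.179 of the FPKM summed over the 3 pro-survival genes in control and 16.4% ± 0.827 in Sora-Treg libraries (SD, n = 3). Bcl2 made up 37.2% ± 0.352 and 46.3% ± 1.06, and Mcl1 32.2% ± 0.196 and 37.3% ± 0.300.

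The BH3-only genes Pmaip1, Bid and Bbc3 fell together, and the order of the 3 falls was not tested. Pmaip1 (chromosome 18) encodes a product that binds MCL1. It had 32.8, 35.8 and 33.6 CPM in ctrl-Treg and 19.7, 21.5 and 19.3 CPM in Sora-Treg libraries, with no overlap. The log2 fold change was -0.76 ± 0.07 (SE, adjusted p = 8.36e-10 in edgeR), and the level fell by 40.9%. Since Mcl1 rose, the ratio of Mcl1 to Pmaip1 FPKM went from 3.77 ± 0.166 to 9.47 ± 0.403 (SD, n = 3).

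Bid (chromosome 6), which caspase-8 cleaves and which so links death receptors to mitochondria, had 25.6, 22.7 and 25.4 CPM in ctrl-Treg and 14.6, 15.0 and 15.3 CPM in Sora-Treg libraries. The Sora-Treg values were close together and all below the lowest control. The log2 fold change was -0.71 ± 0.07 (SE, adjusted p = 1.87e-08 in edgeR).

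Bbc3 (chromosome 7), a p53-induced gene whose product binds all pro-survival members, had 50.5, 49.2 and 48.5 CPM in ctrl-Treg and 33.1, 31.0 and 29.6 CPM in Sora-Treg libraries. The groups were again separate, and the log2 fold change was -0.66 ± 0.05 (SE, adjusted p = 2.11e-10 in edgeR). Thus Pmaip1, Bid and Bbc3 fell by 36.9% to 40.9%.

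Bcl2l11 (chromosome 2), the main BH3-only gene of T-cell contraction and a FOXO target, behaved differently. It had 54.9, 55.1 and 54.9 CPM in ctrl-Treg and 51.2, 50.5 and 52.5 CPM in Sora-Treg libraries. All Sora-Treg values were lower, but the difference was small, with a log2 fold change of -0.10 ± 0.04 (SE, 95% interval -0.19 to -0.01), and did not pass over all genes (adjusted p = 0.0581 in edgeR). With libraries scaled by their totals alone, which moves the median of all genes by -0.12, it passed with a log2 fold change of -0.21 (edgeR adjusted p = 1.71e-04), and with upper quartile scaling with -0.13 (edgeR adjusted p = 0.0101). The ratio of Bcl2 to Bcl2l11 FPKM, which needs no scaling, was 10.1 ± 0.142 in ctrl-Treg and 17.3 ± 0.961 in Sora-Treg libraries (SD, n = 3).

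Bmf (chromosome 2), a BH3-only gene tied to the cytoskeleton, was nearly silent. It had 36, 45 and 42 counts in ctrl-Treg and 43, 30 and 52 counts in Sora-Treg libraries, with overlapping groups. The log2 fold change was 0.15 ± 0.31 (SE, adjusted p = 0.701 in edgeR). Its 95% interval, from -0.49 to 0.78, covers changes as large as those of Bcl2 and Mcl1, so a difference of that size is not excluded.

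The pore formers also differed from each other. Bax (chromosome 7) had 139, 147 and 139 CPM in ctrl-Treg and 114, 107 and 113 CPM in Sora-Treg libraries, without overlap, a log2 fold change of -0.34 ± 0.04 (SE, adjusted p = 3.17e-08 in edgeR). Bak1 (chromosome 17) had 50.0, 47.6 and 47.6 CPM in ctrl-Treg and 49.3, 47.6 and 47.2 CPM in Sora-Treg libraries. These ranges overlapped almost fully, with a log2 fold change of -0.01 ± 0.05 (SE, adjusted p = 0.832 in edgeR) and a 95% interval of -0.11 to 0.08, so a change like that of Bax lay outside it. With libraries scaled by their totals alone Bak1 was at -0.13 and passed (edgeR adjusted p = 0.0208). Relative to Bax, Bcl2 went from an FPKM ratio of 0.370 ± 0.00738 to 0.751 ± 0.0579 (SD, n = 3), so Bax transcripts still outnumbered Bcl2 transcripts per length in every library.

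**Figure D2:**
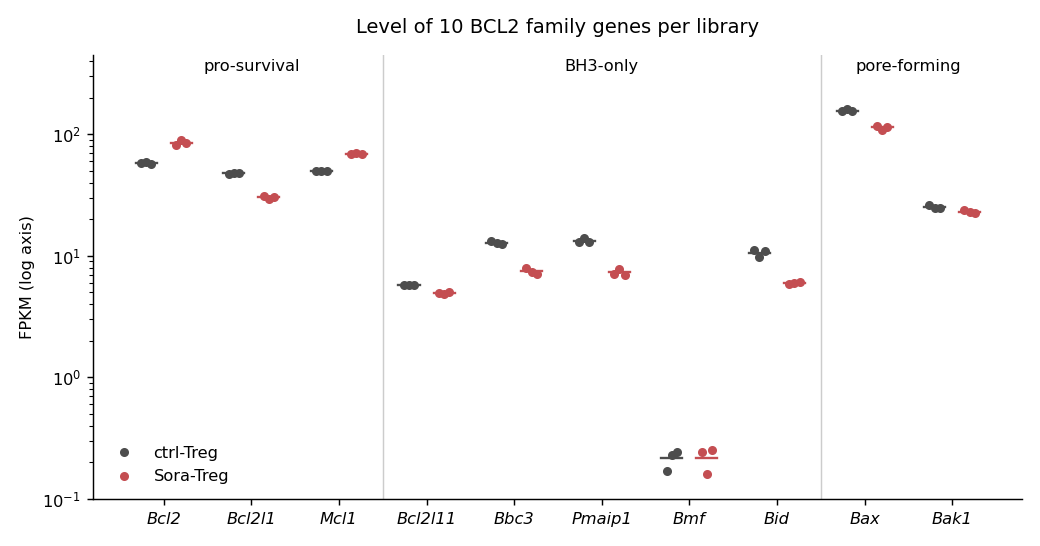
FPKM of each member in each of the 6 libraries on a log axis, with ctrl-Treg in gray and Sora-Treg in red, and the group mean as a bar. Bax is highest and Bmf lowest in both groups, and Bcl2 and Mcl1 are the genes whose Sora-Treg points lie above the ctrl-Treg points in every library.

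Levels per length spanned a wide range. In ctrl-Treg cells the order by FPKM was Bax (157 ± 4.80), Bcl2 (58.0 ± 0.833), Mcl1 (50.2 ± 0.0630), Bcl2l1 (47.6 ± 0.154), Bak1 (25.1 ± 0.791), Pmaip1 (13.3 ± 0.582), Bbc3 (12.8 ± 0.291), Bid (10.6 ± 0.727), Bcl2l11 (5.73 ± 0.0113) and Bmf (0.215 ± 0.0390). Pmaip1 and Bbc3 did not differ beyond the spread of their libraries, and every other pair of neighbours had separate ranges. In Sora-Treg cells the order was the same except that Bbc3 (7.49 ± 0.438) and Pmaip1 (7.29 ± 0.411), again with overlapping ranges, changed places. The middle of the order opened, with Mcl1 at 68.9 ± 0.904 and Bcl2l1 at 30.2 ± 0.991 FPKM in Sora-Treg cells. FPKM rests on 1 fixed length per gene, from 940 bases for Bax to 9973 bases for Bcl2l11, so genes expressed mostly as shorter transcripts would stand too low in this order.

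Summed over the members, pro-survival FPKM was 156, 157 and 155 in ctrl-Treg and 182, 188 and 184 in Sora-Treg libraries. Pro-death FPKM was 223, 229 and 221 in ctrl-Treg and 167, 158 and 164 in Sora-Treg libraries. The ratio of the sums was 0.699, 0.683 and 0.702 in ctrl-Treg and 1.09, 1.19 and 1.12 in Sora-Treg libraries. Its place below or above 1 depends on the length given to each gene, 940 bases for Bax against 7349 for Bcl2 and 8725 for Mcl1. Crossing 1 therefore marks no switch between the roles. The group means were 0.695 ± 0.00976 and 1.13 ± 0.0509 (SD, n = 3), and as a sum over chosen genes the ratio was not tested. The 2 pore formers fell from 182 ± 4.45 to 137 ± 4.36 FPKM in sum and the 5 BH3-only genes from 42.8 ± 0.296 to 25.9 ± 0.398 FPKM. Bax alone made up 69.7% ± 0.873 and 69.9% ± 0.771 of pro-death FPKM, and without it the ratio went from 2.30 ± 0.0398 to 3.77 ± 0.111.

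This ratio depended on which relatives were counted. The Bcl2a1 genes encode A1, a pro-survival member induced by NF-κB that is present in several near-identical copies in the mouse. Bcl2a1b had 44.8, 45.6 and 43.3 CPM in ctrl-Treg and 11.6, 11.3 and 10.2 CPM in Sora-Treg libraries, a log2 fold change of -2.02 ± 0.07 (SE, adjusted p = 2.76e-17 in edgeR). Bcl2a1d had 20.8, 18.0 and 19.2 CPM in ctrl-Treg and 2.74, 2.35 and 1.69 CPM in Sora-Treg libraries, a log2 fold change of -3.11 ± 0.13 (SE, adjusted p = 1.65e-15 in edgeR). Both fell by more than any of the 10 members. Reads of the copies can be shared, so the split between them is uncertain, but Bcl2a1a had at most 10 counts in any library, and the FPKM of the 3 copies together went from 86.2 ± 2.32 to 16.6 ± 1.57 (SD, n = 3). Myeloid and B cells also express A1. B-cell marker sums were lower in Sora-Treg libraries, with 9.71 to 10.7 against 6.09 to 7.68 CPM. Of 7 myeloid genes 5 were lower, but the myeloid sums overlapped, with 24.9 CPM in ctrl-Treg library 3 and 42.9 CPM in Sora-Treg library 2. Bcl2a1b was 43.3 CPM in ctrl-Treg library 3, whose myeloid sum was 24.9 CPM, and 44.8 and 45.6 CPM in the libraries with sums of 93.5 and 93.0 CPM. The part of these cells in the change of A1 was not tested. With the 9 other typical family members of the list added (Bcl2l2, Bcl2l10, the 3 A1 copies, Bad, Bik, Hrk and Bok), pro-survival FPKM went from 247 ± 2.58 to 207 ± 3.41 and pro-death FPKM from 234 ± 3.98 to 172 ± 5.18. The ratio was then 1.06 ± 0.0190 in ctrl-Treg and 1.20 ± 0.0558 in Sora-Treg libraries, a log2 difference of 0.19 in place of 0.71.

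**Figure D3:**
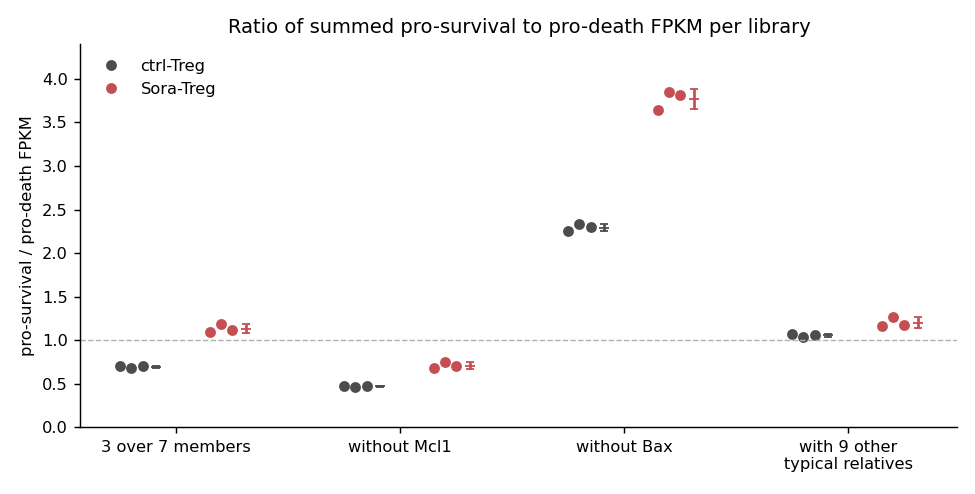
Ratio of summed pro-survival to pro-death FPKM in each library (points) with the group mean ± SD (marks with bars), for the 3 and 7 members, without Mcl1, without Bax, and with 9 other typical relatives. The groups differ from 0.695 to 1.13 for the members and from 1.06 to 1.20 once the relatives are added. The dashed line marks a ratio of 1, whose place among the points depends on the gene lengths behind FPKM.

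RefSeq windows of the 250 bases upstream of annotated starts were read for the members, and 9 of the 10 were matched, with 16 windows in all, since several genes have more than 1 start. Their median GC content was 61.0%, where the median over 32851 windows of all genes was 52.4%. The FOXO core TGTTTAC, searched on both strands because the study places Foxo1 downstream of Sora, was in 2 of the 16 member windows, 1 of Bcl2l11 and 1 of Bbc3, and in 3.17% of all windows. The STAT motif TTCNNNGAA was in 0 of the 16 and in 7.02% of all windows. The cAMP response element core TGACGT was in 1 window, that of Bcl2, and in 6.47% of all windows. Of the windows shown, Bcl2 belongs to a pro-survival gene that rose, Bcl2l11 to its BH3-only partner, which did not pass the test, and Bax to the pore former that fell. Coordinates are on GRCm38.p6, all sequences read 5′ to 3′ on the gene's strand and end 1 base before the annotated start, and capitals mark the motif matches. Bcl2 is at chr1:106714291-106714540 on the minus strand, Bcl2l11 at chr2:128125788-128126037 on the plus strand and Bax at chr7:45466899-45467148 on the minus strand.
Bcl2: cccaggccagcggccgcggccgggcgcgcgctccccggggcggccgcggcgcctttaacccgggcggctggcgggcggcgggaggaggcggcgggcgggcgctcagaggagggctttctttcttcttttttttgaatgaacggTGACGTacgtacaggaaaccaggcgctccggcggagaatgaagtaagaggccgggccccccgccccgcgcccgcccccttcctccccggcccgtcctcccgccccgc
Bcl2l11: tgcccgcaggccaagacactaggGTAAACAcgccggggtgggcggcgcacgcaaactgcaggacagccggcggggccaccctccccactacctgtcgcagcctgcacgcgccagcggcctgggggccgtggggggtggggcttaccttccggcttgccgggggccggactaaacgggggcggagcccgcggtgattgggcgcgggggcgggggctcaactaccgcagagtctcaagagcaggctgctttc
Bax: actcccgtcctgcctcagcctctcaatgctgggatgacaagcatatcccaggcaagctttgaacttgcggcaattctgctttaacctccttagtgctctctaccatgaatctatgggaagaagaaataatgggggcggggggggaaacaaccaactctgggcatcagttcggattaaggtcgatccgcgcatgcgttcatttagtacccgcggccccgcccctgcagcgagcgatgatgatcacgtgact
The match in the Bcl2 window lay 107 to 102 bases upstream of the start, and the FOXO match in the Bcl2l11 window 227 to 221 bases upstream. The Bax window held none of the 3 motifs. A match is a run of letters and does not show that a factor binds there.

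Around the family, 60 other genes of the apoptosis pathway were read, and 56 had enough counts to be tested. Of these, 21 were higher and 22 lower in Sora-Treg cells, so 76.8% differed beside 59.6% of all tested genes. With libraries scaled by their totals, 15 were higher and 29 lower. The median log2 fold change was 0.01. The lists and all tested genes were not matched for expression level. Among genes with a CPM of at least 1 in 3 libraries, 55 of the pathway were tested, with 21 higher and 22 lower. Of all 11761 genes tested under that filter, 3858 were higher and 3782 lower. Among the 15 other relatives of BCL2, 11 were tested, 4 were higher and 5 lower. Besides the A1 genes, Bnip3 and Bnip3l, hypoxia-induced relatives known mainly for mitophagy, rose from 228 ± 4.30 to 537 ± 28.1 CPM and from 208 ± 6.05 to 433 ± 30.7 CPM, with log2 fold changes of 1.23 ± 0.03 and 1.05 ± 0.04 (SE, adjusted p = 5.75e-19 and 1.52e-16 in edgeR). Bcl2l2, which encodes the pro-survival BCL-W, rose by 0.48 ± 0.05 in log2 units (SE, adjusted p = 6.27e-08 in edgeR). Bcl2l15 was lower, at 7.28 ± 0.431 CPM in ctrl-Treg and 3.99 ± 0.216 CPM in Sora-Treg libraries, or -0.87 ± 0.13 in log2 units (SE, adjusted p = 4.05e-06 in edgeR). Bcl2l14 was low, at 1.05 ± 0.254 and 1.70 ± 0.268 CPM, with a log2 fold change of 0.68 ± 0.29 (SE, adjusted p = 0.0465 in edgeR), and kept its call under 5 of 15 alternative settings (adjusted p = 0.0267 to 0.148). Bcl2l10, Hrk and Bok had at most 5 counts in any library.

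In the receptor arm, which starts apoptosis from the cell surface, 4 genes were higher and 4 lower of 9 tested. That is 88.9%, where 59.6% of all tested genes differed. The receptor gene Fas fell from 83.8 ± 1.38 to 38.2 ± 0.502 CPM, and Tnfrsf10b, the mouse TRAIL receptor gene, from 64.1 ± 1.68 to 30.3 ± 0.492 CPM. Their log2 fold changes were -1.13 ± 0.04 and -1.08 ± 0.05 (SE, adjusted p = 2.16e-16 and 4.42e-15 in edgeR). The ligand gene Fasl rose from 1.47 ± 0.202 to 12.2 ± 0.485 CPM, or by 3.04 ± 0.14 in log2 units (SE, adjusted p = 8.49e-15 in edgeR). Receptor and ligand of the same pair thus moved in opposite directions, and Bid, which couples this arm to mitochondria, fell as well. The rest of the arm was mixed. In log2 units Ripk1 (0.38), Casp8 (0.31) and Tradd (0.30) rose, Fadd (-0.31) and Cflar (-0.22) fell, and Tnfrsf1a (0.10) did not pass.

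Downstream of the pore, the apoptosome and the factors released with cytochrome c were read in a list of 9 genes. That list also held Vdac2 and Mtch2 of the outer membrane, which did not pass (adjusted p = 0.429 and 0.445 in edgeR). Of the 9, 2 were higher and 4 lower. This share, 66.7%, was near the 59.6% of all tested genes, but Vdac2 and Mtch2 pull it down. Endog, a mitochondrial nuclease, rose by 0.66 ± 0.10, Apaf1, the apoptosome scaffold, changed by -0.39 ± 0.03 and Casp9, its caspase, rose by 0.32 ± 0.08 on the log2 scale (SE, adjusted p = 5.15e-06, 1.94e-09 and 0.00152 in edgeR). Casp9 lost the call in limma on FPKM (0.16 to 0.19, adjusted p = 0.0525 to 0.152) and in edgeR without ctrl-Treg libraries 1 and 2 (0.20, adjusted p = 0.154). All 5 execution genes read differed, 2 higher and 3 lower, where 59.6% of all tested genes differed. Dffb, the nuclease that cuts DNA between nucleosomes, fell from 21.3 ± 0.873 to 9.53 ± 0.650 CPM, with a log2 fold change of -1.16 ± 0.08 (SE, adjusted p = 3.11e-11 in edgeR). Casp6 rose from 19.8 ± 1.42 to 39.5 ± 2.59 CPM (edgeR adjusted p = 1.11e-11). Of 4 inhibitor of apoptosis genes, 3 were higher and none lower, beside the 59.6% of all tested genes that differed. Birc2 had a log2 fold change of 0.42 ± 0.04 (SE, adjusted p = 1.85e-09 in edgeR). Xiap was 1.13-fold higher (adjusted p = 0.00322 in edgeR). Its FPKM overlapped, with 3.91, 4.02 and 3.86 in ctrl-Treg and 3.76, 4.46 and 4.03 in Sora-Treg libraries. Birc3 was 1.06-fold higher (adjusted p = 0.044 in edgeR). The mean FPKM of Birc3 was lower in Sora-Treg than in ctrl-Treg libraries, so its direction depended on the scaling.

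**Figure D4:**
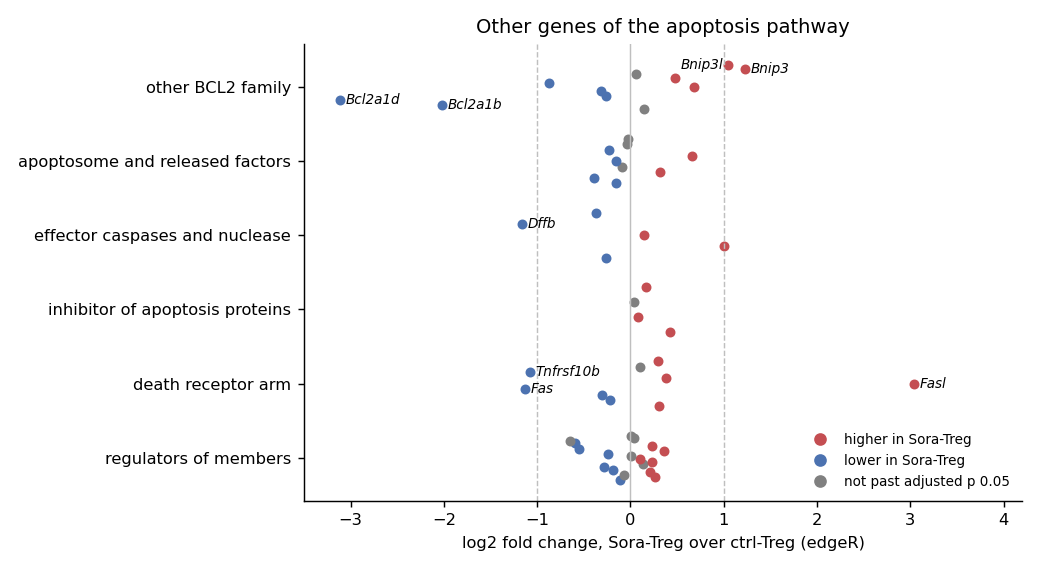
Log2 fold change in Sora-Treg over ctrl-Treg cells (edgeR) of the 56 tested genes of the pathway outside the 10 members, 1 point per gene, by list. Dashed lines mark a 2-fold change, beyond which lie Bcl2a1b, Bcl2a1d, Dffb, Fas and Tnfrsf10b on the lower side and Bnip3, Bnip3l and Fasl on the higher side.

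Genes known to regulate members were examined last. Of 10 transcription factors, 4 were higher and 4 lower, or 80.0% beside 59.6% of all tested genes. Trp53, which encodes p53, an activator of Bbc3, Pmaip1 and Bax, fell from 144 ± 3.02 to 95.5 ± 2.29 CPM, which is -0.59 ± 0.04 on a log2 scale (SE, adjusted p = 1.37e-12 in edgeR). Foxo1, whose product can activate Bcl2l11, rose by 0.23 ± 0.03 on the log2 scale (SE, adjusted p = 8.77e-07 in edgeR). Its relative Foxo3 had a log2 fold change of 0.10 ± 0.03 (SE, adjusted p = 0.00965 in edgeR), and -0.0168 with libraries scaled by their totals (edgeR adjusted p = 0.658), so its direction is not fixed. It also lost the call without ctrl-Treg library 1 (0.0847) or Sora-Treg library 3 (0.0816). Atf4, a stress factor that acts on Pmaip1 and Bbc3, changed by -0.11 ± 0.03 (SE, adjusted p = 0.00203 in edgeR). Of 8 genes for turnover or binding of the proteins, 2 were higher, 2 lower and 4 did not pass, so 50.0% differed. Whether any of these moved the members was not tested.

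Counts were summed per gene, so the long and short splice forms of Mcl1, Bcl2l1 and Bcl2l11, which can differ in function, were not separated. Of the genes that overlap members on the annotation, those with counts were low beside them, with at most 313 counts for Cox4i2 in the Bcl2l1 locus, 79 for Ggnbp1 in the Bak1 locus and 25 for Gm37053 in the Bcl2 locus. Mir3473f in the Bcl2 locus, Gm32211 in the Bcl2l1 locus and Gm17812 in the Bid locus had no counts to read. Several pro-apoptotic and survival functions of these genes are set by protein stability and phosphorylation, which RNA does not measure.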

How the data were processed

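RNA was sequenced from 3 ctrl-Treg and 3 Sora-Treg libraries of mouse cells. The titles of the samples gave the group and the replicate number. Raw counts, listed by gene symbol, were deposited together with FPKM values for the same genes. For their making, the submitters' processing notes name fastp, HISAT2, HTSeq, R 3.2.0 and DESeq2 with the build GRCm39, whereas the methods of the study name Bowtie2 and GRCm38 and an expectation-maximization algorithm. The annotation release and the treatment of strand are not given in the sources used here. FPKM equalled the count over 1 length for each gene and the total of the library (largest relative difference 1.64e-06), so it is no separate measurement. For genes matched by symbol, RefSeq (GRCm38.p6), which held 97.5% of the symbols, gave positions and upstream windows.

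Counts were tested with the quasi-likelihood test of edgeR 4.0.16 (R 4.3.3) with TMM scaling, the filterByExpr filter, no covariate, and Benjamini-Hochberg adjustment over all 13463 tested genes. Standard errors are those the F statistic implies. With 3 libraries against 3, the smallest p of an exact two-sided permutation test is 0.1, and genes therefore rest on the fit across all genes. Each pair of replicates differed beyond sampling noise (chi-square per degree of freedom 3.36 to 5.91). A floor of 3 counts was 0.0795 to 0.0976 CPM, for counting error only.

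All 10 members are named. Of the other genes, those past the threshold with a log2 fold change beyond 1 are named, as are at most the 3 next by size of change per list, the regulators Foxo1, Foxo3, Trp53 and Atf4, and Foxp3. Birc3, Xiap, Vdac2, Mtch2, Cd4, Il2ra, Ctla4, Ikzf2, the remaining genes of the receptor arm, genes below the filter and overlapping genes were chosen after their values were seen. Members and lists were chosen with earlier results of these data known. A result on 1 gene of the pathway is not reported here. Alternatives were other scalings and filters, DESeq2 1.42.0, a replicate block, limma 3.58.1 on log2(FPKM + 1) and log2(FPKM + 0.1) with a minimum FPKM of 1 in 3 libraries or none, each library left out, and sums of FPKM without Mcl1 or with other relatives. Leaving out Bax, or ctrl-Treg libraries 1 and 2 together, was chosen after seeing the data.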

Additional observations from a re-analysis of the deposited data

How the results depend on the processing

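Bcl2, Mcl1, Bcl2l1, Bbc3, Pmaip1, Bid and Bax kept direction and call under all 17 alternatives, also without ctrl-Treg libraries 1 and 2, and no pro-death member rose in any. Bcl2l11 passed with log2 fold changes of -0.13 with upper quartile scaling, -0.21 with library size only, and -0.18, -0.21 and -0.18 with limma on log2(FPKM + 1), log2(FPKM + 0.1) and unfiltered log2(FPKM + 1). Bak1 passed at -0.13 with library size only and at -0.12, -0.13 and -0.12 on those FPKM scales. FPKM, like library size only, carries no TMM scaling. With library size only in place of TMM, the log2 fold changes of all genes moved by a median of -0.12. Bak1 ranged from -0.0284 to 0.015 with 1 library left out, positive without ctrl-Treg replicate 1 or Sora-Treg replicate 3, and was 0.0131 without ctrl-Treg libraries 1 and 2, where Bmf was -0.0449. None of these was significant. Bmf ranged from 0.00198 to 0.32 with 1 library left out. The cause of these was not tested. Bmf was below the FPKM minimum and has no value there. Of 21 other genes followed across the settings, 17 kept direction and call throughout. Bcl2l14 lost the call under most settings. Casp9 lost the call on the FPKM scales (0.16, 0.19 and 0.16) and without ctrl-Treg libraries 1 and 2 (0.20). With library size only and on the 3 FPKM scales, Foxo3 was -0.0168, -0.0167, -0.0172 and -0.0167 and Foxp3 -0.0410, -0.0394, -0.0399 and -0.0394.

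Over all genes, 3994 were higher and 4028 lower, and 848 and 669 beyond 2-fold. Limma on log2(FPKM + 1) gave 2357 higher, with 274 and 189 beyond 2-fold, a pseudocount of 0.1 gave 2350, 373 and 371, and no filter 2577, 274 and 185. Library size only gave 2862 higher and 5614 lower. The log2 difference of the pro-survival to pro-death ratio was 0.71, 0.67 to 0.73 with a library left out, 0.59 without Mcl1 and 0.19 with other relatives. Same-numbered libraries did not deviate together (r = -0.0438, 0.0591 and 0.0299), and the replicate block, with 4057 higher and 4064 lower genes, changed no call of a member. Bmf, with the fewest counts, had the widest interval among the members.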
